A study of Mus musculus with 23 samples.

Results

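Chemokines are small secreted proteins that direct leukocyte migration, and their receptors are G protein-coupled receptors on the responding cells. The 54 protein-coding genes whose symbols begin with Ccl, Cxcl, Ccr or Cxcr followed by a digit were taken from a table of 56748 genes. They comprised 24 CC ligands, 13 CXC ligands, 11 CC receptors and 6 CXC receptors. RNA was measured in 23 subcutaneous tumors of B16-F1 cells, a mouse melanoma line derived from C57BL/6 mice, grown in DBA/2J mice aged 6 to 8 weeks. In the intraperitoneal (IP) series the groups were CONTROL_IP (saline), PTX_IP, NCTD_IP and MIX_IP, with 2 tumors each. In the intratumoral (IT) series they were CONTROL_IT (DMSO), NCTD_IT and MIX_IT with 4 tumors each and PTX_IT with 3. PTX groups received pentoxifylline, a phosphodiesterase inhibitor, at 60 mg/kg, NCTD groups norcantharidin, a demethylated cantharidin and protein phosphatase inhibitor, at 3 mg/kg, and MIX groups both at those doses. The labels give the route as a batch and the vehicle changed with it, so route, batch and vehicle cannot be told apart. Tumors are named below by the replicate numbers in the labels.

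Chemokines fall into functional families. CXC ligands with a glutamate-leucine-arginine motif before the first cysteines (ELR CXC ligands) attract neutrophils through Cxcr2. Interferon-induced CXC ligands (Cxcl9, Cxcl10 and Cxcl11) attract activated T and NK cells through Cxcr3. Inflammatory CC ligands recruit monocytes, macrophages and effector T cells, through CC receptors such as Ccr1 and Ccr2. Homeostatic ligands position lymphocytes in lymphoid organs and epithelia.

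Library depth ranged from 2861578 to 6702374 counts, at which 3 counts in 1 tumor correspond to between 0.448 and 1.03 counts per 1000000 (CPM). Melanocytic markers (7 genes, including Pmel, Dct and Tyrp1) were present in every tumor, with a summed level between 15260 and 37058 CPM. Some tumors stood apart in marker sums. NCTD_IT tumor 18 had a neutrophil marker sum (8 genes) of 1080.0 CPM, against 4.0 to 45.5 CPM in the other 22 tumors, and this came mainly from S100a9 (756 CPM) and S100a8 (294 CPM). Csf3r (22.2 CPM), Retnlg (3.81 CPM) and Stfa2l1 (2.63 CPM) were also highest in tumor 18, whereas Mmp8 (1.76 CPM) was not. Cxcr1 had no read in any tumor and Ly6g only in CONTROL_IP tumor 1, so their zeros do not set tumor 18 apart. MIX_IT tumor 23 had a fibroblast marker sum (7 genes) of 8568 CPM, against 108 to 1875 CPM elsewhere, and the lowest melanocytic sum. PTX_IP tumor 3 had a keratinocyte marker sum (6 genes) of 134 CPM, against 0 to 36.7 CPM elsewhere. Tumor 18 also had the highest skeletal muscle marker sum (6 genes), 215 CPM, against 0.514 to 130 CPM elsewhere. The part of these sums in the chemokine values was not tested. Most results that rest on tumor 18 or 23 are also given without that tumor, or with the range over fits that left out 1 tumor. The X-inactivation RNA Xist was at 5.17 to 13.6 CPM in the 4 NCTD_IT tumors and at 1.28 to 11.6 CPM in the 3 PTX_IT tumors, but at 0 to 0.565 CPM in CONTROL_IT and at 0 in MIX_IT. The Y-linked gene Ddx3y was at 0 to 0.293 CPM in NCTD_IT, 0 to 0.278 CPM in PTX_IT, 1.03 to 8.97 CPM in CONTROL_IT and 6.82 to 15.5 CPM in MIX_IT. The CONTROL_IP tumors were also unlike each other, with Xist at 0 to 8.24 CPM and Ddx3y at 0.450 to 5.62 CPM, whereas Xist was at 0 in the other 6 IP tumors and Ddx3y at 3.27 to 14.0 CPM. For NCTD_IT and PTX_IT against CONTROL_IT the drug and this difference in sex-linked transcripts therefore cannot be told apart. The limit also applies to the later tests that include these groups.

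Of the 54 genes, 35 were detected, defined as a mean level of 1 CPM or more in any of the 8 groups, and 23 of them reached that level in all 8 groups. All 3 interferon-induced CXC ligands were detected, and 11 of 12 inflammatory CC ligands, 4 of 5 ELR CXC ligands, 4 of 6 CXC receptors, 3 of 5 other CXC ligands, 5 of 11 CC receptors and 5 of 12 homeostatic and lymphoid or epithelial CC ligands. The 10 genes with the highest mean over the 23 tumors held 80.3% of all reads assigned to the family. Among them were Cxcl9 (185 CPM), Ccl8 (107 CPM), Ccl7 (98.6 CPM), Cxcl10 (93.2 CPM), Cxcl2 (78.4 CPM), Ccl5 (67.6 CPM), Ccl6 (62.1 CPM), Ccl2 (49.8 CPM) and Ccl9 (25.2 CPM). The libraries read the 3′ end of transcripts, so levels were not divided by gene length.

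Among the 19 genes below the limit, 8 had no read in any tumor: Ccl21b, Ccl21d, Ccl26, Cxcl17, Ccr1l1, Ccr6, Ccr8 and Cxcr1. The other 11 (Ccl1, Ccl19, Ccl20, Ccl27b, Ccl28, Ccr3, Ccr4, Ccr10, Cxcl13, Cxcl15 and Cxcr5) had between 2 and 33 reads in all 23 tumors together. They include the B cell receptor Cxcr5 and the eosinophil receptor Ccr3, and among the genes with no read is Ccr8, carried by regulatory T cells. At this depth a level under the floor was not detectable, which does not show that a gene was silent.

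**Figure D1:**
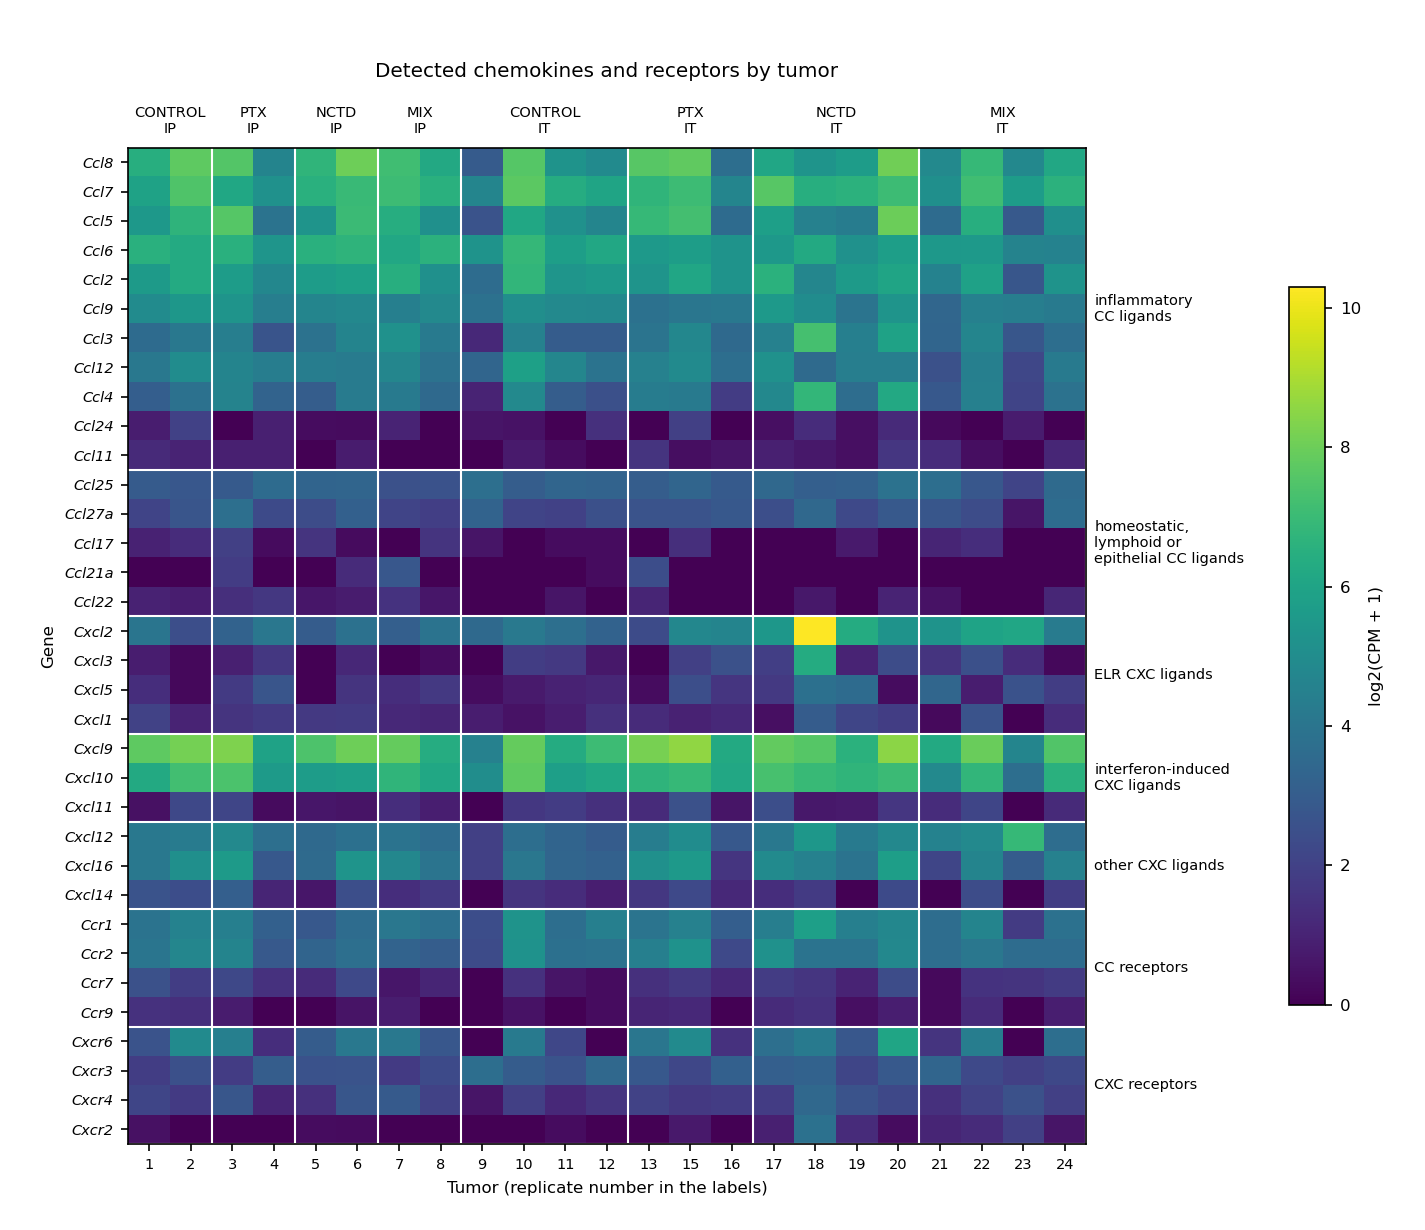
Level of 34 of the 35 detected genes (rows, by family and then by mean level) in the 23 tumors (columns, by group), as log2(CPM + 1). Cxcl2 and Cxcl3 are brightest in NCTD_IT tumor 18, Cxcl12 in MIX_IT tumor 23, and Cxcl9, Ccl5 and Ccl8 differ between tumors of the same group in most groups.

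Each drug group was set against the control tumors of the same route to ask which family members moved with treatment. The genes that passed a filter on low counts were tested with edgeR's quasi-likelihood test, 28 members of 12424 genes in the IP series and 27 of 12480 in the IT series. Passing the filter can depend on the group where a gene is high, so counts over the tested members are descriptions. No member passed an adjusted p of 0.05 in PTX_IP, NCTD_IP, MIX_IP, PTX_IT or MIX_IT, in each of which 0% of all tested genes passed in either direction. DESeq2 on the same tumors also called no member in PTX_IP, NCTD_IP, MIX_IP or PTX_IT, and called Cxcl12 in MIX_IT, among 218 of all tested genes. In NCTD_IT 1 member of 27 was higher in edgeR, Cxcl2, against 0.921% of all tested genes, and none was lower, against 0.449%. DESeq2 on the same tumors called 2 other members there, Ccl3 and Cxcl5, among 991 of all genes, and gave no p for Cxcl2.

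At an unadjusted p below 0.05, 8 of the 27 members tested were higher in NCTD_IT (Cxcl2, Cxcl3, Cxcl5, Ccl3, Ccl4, Cxcl12, Cxcl16 and Cxcr4), or 29.6%, against 11.6% of all tested genes, and 0 were lower, against 10.0%. In MIX_IT 2 were higher (Cxcl12 and Cxcl5), or 7.41% against 7.88%, and 1 was lower (Ccl6), or 3.70% against 5.11%, shares near the background. In PTX_IT there were 0 in either direction, against 4.18% higher and 2.16% lower. The IP series had 1 lower in PTX_IP (Ccl7, against 2.30%) with 0 higher (3.00%). NCTD_IP had 0 in either direction (1.92% higher, 1.67% lower). MIX_IP had 1 higher (Ccl21a, against 1.39%) and 2 lower (Ccr2 and Ccr7, against 1.55%).

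Without NCTD_IT tumor 18 and MIX_IT tumor 23, an alternative chosen after seeing the data, the adjusted counts of members were 0 in each IT comparison, against 179 of all 12213 tested genes in NCTD_IT and 0 in PTX_IT and MIX_IT. The unadjusted ones were then 6 of 27 in NCTD_IT (22.2% against 20.9% of all genes, Cxcl3 and Cxcr4 no longer among them), 4 in MIX_IT (14.8% against 9.01%, Cxcl2 added) and 1 in PTX_IT (3.70% against 8.79%, Cxcl12). With 1 tumor left out at a time, the unadjusted count was 5 to 13 in NCTD_IT (5 without NCTD_IT tumor 18, or 18.5% against 17% of all genes, and 13 without CONTROL_IT tumor 10, or 48.1% against 22.6%). For PTX_IT it was 0 to 6 (6 without CONTROL_IT tumor 10, 22.2% against 8.85%, and 2 without CONTROL_IT tumor 9 or PTX_IT tumor 16) and for MIX_IT 2 to 5 (2 without CONTROL_IT tumor 10 and 5 without MIX_IT tumor 24). The PTX_IP count was 0 to 14, with 14 of 29 members (48.3% against 13.1% of all genes) without PTX_IP tumor 3, 3 without PTX_IP tumor 4, 2 without CONTROL_IP tumor 1 and 0 without CONTROL_IP tumor 2. For NCTD_IP it was 0 to 3 (3 without PTX_IP tumor 3 or 4, 2 without CONTROL_IP tumor 1 and 1 without NCTD_IP tumor 6) and for MIX_IP 0 to 5 (5 without PTX_IP tumor 3 or 4, 2 without either NCTD_IP tumor, 1 without either CONTROL_IP tumor or MIX_IP tumor 8 and 0 without MIX_IP tumor 7). Where it is given, the share over all genes moved with the tumor left out as well. Counts printed without that share, here and below, therefore do not describe a change particular to the family.

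The direction of the point estimates differed between comparisons. In NCTD_IT 24 of 27 tested members had a log2 fold change above 0, with a median of 0.84 against 0.03 over all tested genes. The count was between 21 and 24 when single NCTD_IT or CONTROL_IT tumors were left out, except without NCTD_IT tumor 17, when it was 22 of 26, but the median was 1.5 without CONTROL_IT tumor 10, 0.55 without CONTROL_IT tumor 9 and 0.45 without NCTD_IT tumor 20. In PTX_IT 19 of 27 were positive (median 0.44, all genes 0.02) and in MIX_IT 14 of 27 (median 0.03, all genes 0.01). The PTX_IT median was 0.98 without CONTROL_IT tumor 10 and 0.24 without PTX_IT tumor 15. The MIX_IT count fell to 6 of 26 (median -0.46) without tumor 22 and rose to 21 of 27 (median 0.71) without CONTROL_IT tumor 10. In the IP series 12, 14 and 7 of 28 were positive in PTX_IP, NCTD_IP and MIX_IP, with medians of -0.07, -0.04 and -0.30 and medians over all genes of 0.01, -0.01 and -0.01. Without CONTROL_IP tumor 2 the IP counts were 18, 19 and 18 of 29 (medians 0.26, 0.14 and 0.21), and without CONTROL_IP tumor 1 they were 14, 10 and 8 of 30 (medians -0.26, -0.40 and -0.63). The PTX_IP count was 5 of 29 (median -1.20) without PTX_IP tumor 3 and 21 of 29 (0.25) without tumor 4. The NCTD_IP count was 6 of 32 (-0.57) without NCTD_IP tumor 6 and 19 of 32 (0.12) without tumor 5, and the MIX_IP count 8 of 32 (-0.63) without MIX_IP tumor 7 and 12 of 32 (-0.14) without tumor 8. The IT comparisons share their control tumors, as do the IP comparisons. With log2 CPM of Xist as a covariate the count of positive members in NCTD_IT was 8 of 27 and the median -1.22, and in PTX_IT 2 of 27 and -1.40. Xist did not overlap between NCTD_IT or PTX_IT and CONTROL_IT, so the fits with Xist rest on spread within groups. They separate drug and Xist poorly and do not show that a direction turned. In NCTD_IT edgeR then called 0 of all tested genes.

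**Figure D2:**
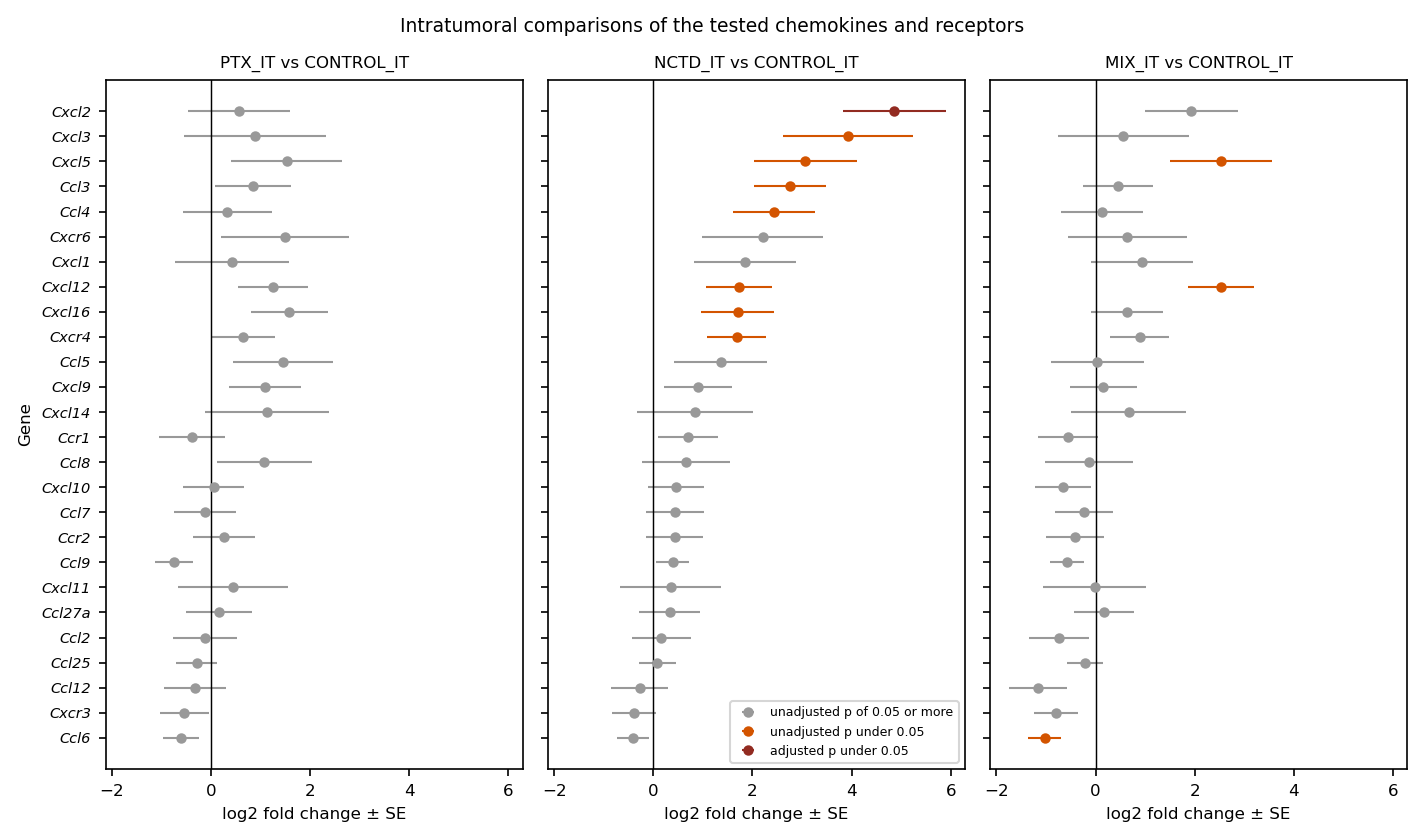
Log2 fold change with its standard error for 26 of the 27 tested members in the 3 intratumoral comparisons with CONTROL_IT, ordered by NCTD_IT and coloured by p from edgeR. Cxcl2, Cxcl3, Cxcl5, Ccl3 and Ccl4 lead the NCTD_IT panel, while in the MIX_IT panel Cxcl12 and Cxcl5 lie farthest to the right.

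The ELR CXC ligands Cxcl1, Cxcl2, Cxcl3 and Cxcl5 lie close together on chromosome 5, on the plus strand, at chr5:90907219-90909483 (Cxcl5), chr5:90933962-90937459 (Cxcl3), chr5:91039100-91040974 (Cxcl1) and chr5:91051730-91053797 (Cxcl2) in GRCm39. Their promoters are shown because Cxcl2, Cxcl3 and Cxcl5 had the 3 highest log2 fold changes of the family in NCTD_IT. The promoters cover 250 bases before and 50 bases after the start of the canonical transcript in GENCODE vM39, 5′ to 3′ on the strand of the gene, and capitals mark matches on either strand to an NF-κB motif (GGG, any 2 bases, then TTTCC).
Cxcl1 (chr5:91038844-91039143, plus strand): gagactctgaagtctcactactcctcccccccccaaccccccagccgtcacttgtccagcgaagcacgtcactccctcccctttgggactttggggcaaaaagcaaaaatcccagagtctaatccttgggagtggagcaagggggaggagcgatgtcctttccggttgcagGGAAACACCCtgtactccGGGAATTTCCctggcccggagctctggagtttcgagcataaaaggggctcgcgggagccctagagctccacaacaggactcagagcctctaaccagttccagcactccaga
Cxcl2 (chr5:91051480-91051779, plus strand): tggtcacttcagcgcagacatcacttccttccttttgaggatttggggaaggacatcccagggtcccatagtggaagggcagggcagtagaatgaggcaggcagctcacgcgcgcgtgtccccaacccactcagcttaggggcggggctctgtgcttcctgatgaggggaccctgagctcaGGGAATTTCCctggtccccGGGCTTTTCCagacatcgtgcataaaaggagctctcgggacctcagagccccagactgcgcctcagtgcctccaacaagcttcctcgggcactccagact
Cxcl3 (chr5:90933712-90934011, plus strand): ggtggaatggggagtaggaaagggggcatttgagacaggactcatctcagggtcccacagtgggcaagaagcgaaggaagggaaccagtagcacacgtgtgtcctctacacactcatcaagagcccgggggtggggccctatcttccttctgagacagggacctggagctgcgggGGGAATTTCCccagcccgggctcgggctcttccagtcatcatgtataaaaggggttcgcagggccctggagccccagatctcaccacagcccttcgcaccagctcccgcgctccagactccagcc
Cxcl5 (chr5:90906987-90907286, plus strand): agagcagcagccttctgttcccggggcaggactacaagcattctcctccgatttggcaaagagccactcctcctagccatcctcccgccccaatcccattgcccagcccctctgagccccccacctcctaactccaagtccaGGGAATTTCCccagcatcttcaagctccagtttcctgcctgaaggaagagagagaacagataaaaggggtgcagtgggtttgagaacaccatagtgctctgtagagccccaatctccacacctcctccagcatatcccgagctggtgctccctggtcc
Each of these 4 promoters held at least 1 match, and the letters GGGAATTTCC occurred in all 4. In Cxcl2 there were 2 matches, beginning 69 and 50 bases before the start, and in Cxcl1 the 2 matches began 79 and 61 bases before it. The match began 75 bases before the start in Cxcl3 and 108 bases before it in Cxcl5. Among all 21770 protein-coding promoters of this length 1.76% held the motif, and among the 54 family promoters 10, or 18.5% (also Ccl2, Ccl5, Ccl9, Ccl20, Ccr3 and Cxcr5). The interferon response motif (GAAA, any 2 bases, then GAAA) was in 3 family promoters (Ccl19, Cxcl10 and Cxcl14; 5.56%, all promoters 3.84%), the STAT motif TTCNNNGAA in 7 (13%, all promoters 8.81%) and the AP-1 motif TGANTCA in 9 (16.7%, all promoters 7.14%). The promoters of Ccl3, Ccl4 and Cxcl12 held no match to the NF-κB motif in this window. A match is a description of these letters and does not show that a factor was bound.

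Cxcl2, a neutrophil chemoattractant produced mainly by activated macrophages and neutrophils, was at 10.5, 17.1, 12.6 and 8.47 CPM in the CONTROL_IT tumors 9 to 12. It was at 43.2, 1266, 79.0 and 37.8 CPM in NCTD_IT tumors 17 to 20, so that each NCTD_IT tumor lay above each control. In MIX_IT tumors 21 to 24 it was at 38.2, 62.8, 67.9 and 18.5 CPM, again all above the controls, and in PTX_IT tumors 13, 15 and 16 at 4.17, 26.0 and 24.4 CPM, overlapping them. Non-overlap upward was found for 2 of 27 members in NCTD_IT (Cxcl2 and Cxcl12; 7.41% against 7.80% of all genes) and for 1 of 27 in MIX_IT (Cxcl2; 3.70% against 4.91%), shares near or below the background. In PTX_IT there was no such member in either direction, against 3.79% of all genes upward and 4.16% downward.

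For Cxcl2 in NCTD_IT edgeR gave a log2 fold change of 4.86 ± 1.04 (SE), unadjusted p = 2.30e-04 and adjusted p = 0.0363. The level in NCTD_IT was 356 ± 607 CPM (SD, n = 4), a mean set by tumor 18, and without that tumor it was 53.3 ± 22.4 CPM (SD, n = 3), against 12.2 ± 3.67 CPM (SD, n = 4) in CONTROL_IT. Without tumor 18 the log2 fold change was 2.13 and the adjusted p from edgeR 0.121. The adjusted p was also above 0.05 without CONTROL_IT tumor 9 (0.119), 11 (0.119) or 12 (0.145), PTX_IT tumor 13 (0.0573) or NCTD_IT tumor 17 (0.0568). In these 5 fits the log2 fold change was 4.75 to 5.26, and in them and without tumor 18 edgeR called 0 or 1 of all tested genes in NCTD_IT, against 171 with all tumors. With Xist as a covariate the log2 fold change was 3.45 and the adjusted p 0.852. DESeq2 gave no p for this gene. The neutrophil marker sum was 19.2 to 1080.0 CPM in NCTD_IT, 14.5 to 19.6 CPM in MIX_IT and 4.0 to 11.2 CPM in CONTROL_IT, and its part in the Cxcl2 levels was not tested.

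The other ELR ligands had low counts. Cxcl3, a close paralog of Cxcl2, was at 0, 2.62, 2.26 and 0.565 CPM in CONTROL_IT and at 2.77, 79.0, 1.03 and 4.26 CPM in the NCTD_IT tumors, with a log2 fold change of 3.93 ± 1.31 (SE), unadjusted p = 0.00824 and adjusted p = 0.102. The high value was tumor 18 alone, and without it the NCTD_IT mean was 2.69 ± 1.61 CPM (SD, n = 3) and the log2 fold change 0.96. Elsewhere Cxcl3 was at 0, 2.89 and 4.87 CPM in PTX_IT, 1.92, 4.67, 1.45 and 0.166 CPM in MIX_IT, 0.775 and 0.150 CPM in CONTROL_IP, 0.896 and 2.18 CPM in PTX_IP, 0 and 1.19 CPM in NCTD_IP and 0 and 0.280 CPM in MIX_IP.

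Cxcl5, an ELR ligand of epithelial and stromal cells, was at 0.257, 0.656, 1.01 and 1.13 CPM in CONTROL_IT, or 1, 3, 4 and 4 reads, near the floor. It was at 2.25, 12.9, 11 and 0.266 CPM in NCTD_IT, where tumors 18 and 19 were high and tumor 20 was within the control range, with a log2 fold change of 3.06 ± 1.04 (SE), unadjusted p = 0.00942 and adjusted p = 0.110 in edgeR. DESeq2 on the same tumors called Cxcl5 in NCTD_IT at an adjusted p below 0.05. In MIX_IT Cxcl5 was at 9.61, 0.779, 5.08 and 2.66 CPM, with tumor 22 within the control range, and a log2 fold change of 2.52 ± 1.03 (SE), unadjusted p = 0.0261 and adjusted p = 0.313. The other Cxcl5 levels were 0.278, 4.50 and 2.05 CPM in PTX_IT, 1.55 and 0.150 CPM in CONTROL_IP, 2.39 and 5.67 CPM in PTX_IP, 0 and 1.90 CPM in NCTD_IP and 1.56 and 2.24 CPM in MIX_IP, the highest of these being PTX_IP tumor 4. Cxcl1 was at a group mean between 0.914 CPM in CONTROL_IT and 3.37 CPM in NCTD_IT and had no unadjusted p below 0.05 in any drug comparison.

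Cxcr2, the receptor of these ligands, was at 0 CPM in 10 of the 23 tumors and at 0.867, 13.2, 1.38 and 0.266 CPM in NCTD_IT, again with tumor 18 highest. In MIX_IT it was at 1.07, 1.40, 2.9 and 0.499 CPM, with tumor 23 highest. It did not pass the filter in either series and was tested only over all 23 tumors. The other ELR receptor, Cxcr1, had no read. In the IP series Cxcl2 was at 15.1 and 4.50 CPM in CONTROL_IP, 8.51 and 15.9 CPM in PTX_IP, 6.99 and 13.6 CPM in NCTD_IP and 7.81 and 14.0 CPM in MIX_IP, with overlapping groups. The summed level of the ELR ligands was 11.6 to 20.8 CPM in CONTROL_IT, 44.9 to 1365 CPM in NCTD_IT, 22.8 to 74.5 CPM in MIX_IT, 6.40 to 34.4 CPM in PTX_IT and 5.99 to 26.2 CPM in the 8 IP tumors, most of it from Cxcl2.

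**Figure D3:**
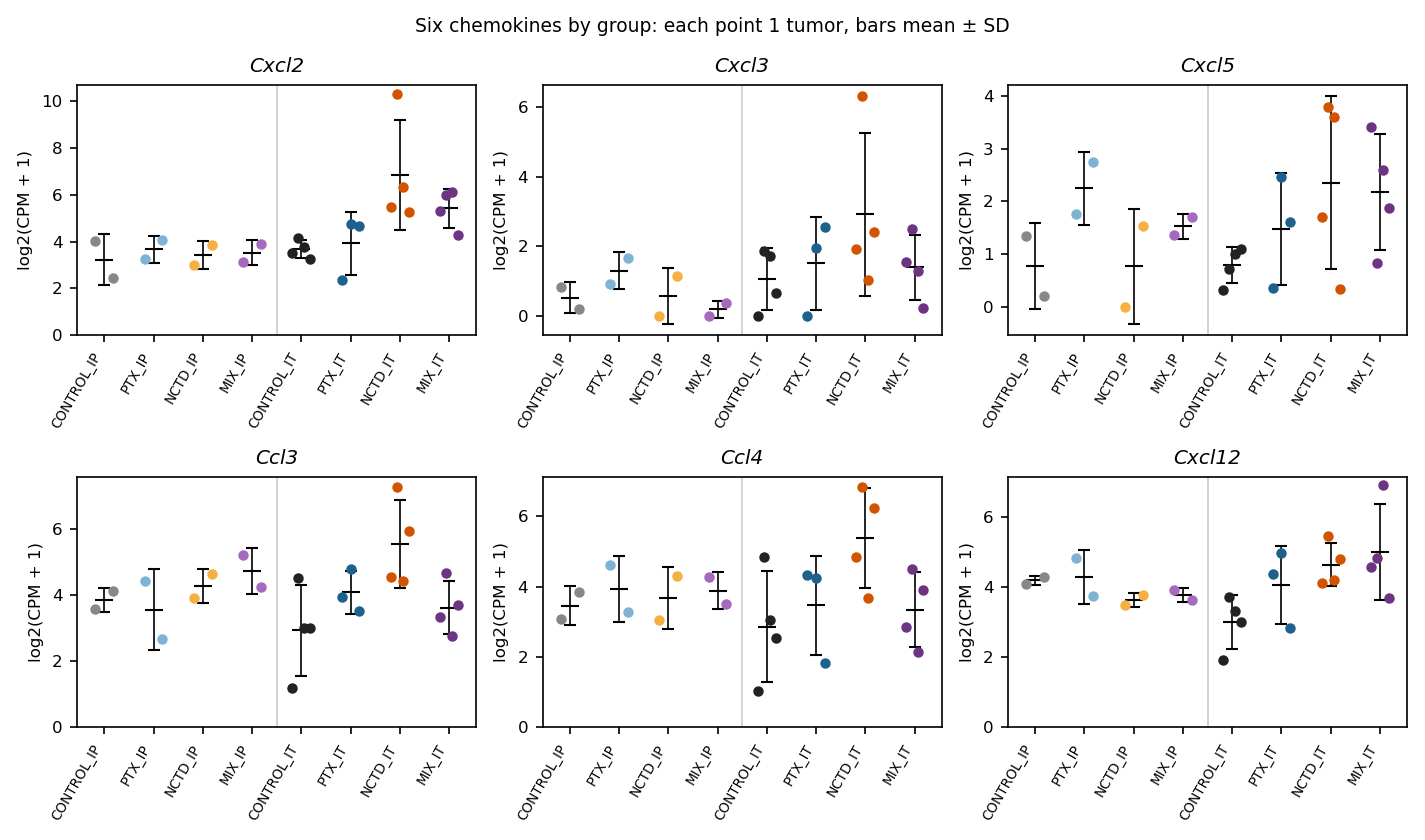
Levels of Cxcl2, Cxcl3, Cxcl5, Ccl3, Ccl4 and Cxcl12 as log2(CPM + 1) in each tumor (points) of the 8 groups, with the mean and SD of those log2 values, and the vertical line between the IP and IT series. The 4 NCTD_IT points of Cxcl2 lie above the CONTROL_IT points, with tumor 18 far above the other 3, and the MIX_IT mean of Cxcl12 is raised by tumor 23.

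Among the inflammatory CC ligands, the macrophage inflammatory proteins Ccl3 and Ccl4 had the highest NCTD_IT estimates. Their genes are close neighbours on chromosome 11, Ccl3 at chr11:83538670-83540181 on the minus strand and Ccl4 at chr11:83553410-83555509 on the plus strand. Ccl3 was at 1.28, 22.1, 7.04 and 7.06 CPM in CONTROL_IT and at 22.4, 155, 20.7 and 60.1 CPM in NCTD_IT, where tumors 18 and 20 lay well above all controls, tumor 17 barely above CONTROL_IT tumor 10 and tumor 19 just below it. It had a log2 fold change of 2.75 ± 0.72 (SE), unadjusted p = 0.00151 and adjusted p = 0.0579. DESeq2 on the same tumors gave an adjusted p of 0.0159. The other levels of Ccl3 were 14.5, 26.7 and 10.5 CPM in PTX_IT, 9.19, 24.6, 5.80 and 12.1 CPM in MIX_IT, 11 and 16.3 CPM in CONTROL_IP, 20.5 and 5.45 CPM in PTX_IP, 14.0 and 23.8 CPM in NCTD_IP and 36.2 and 17.9 CPM in MIX_IP. Without tumor 18 its log2 fold change in NCTD_IT was 1.86.

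Ccl4 was at 1.03, 27.6, 7.29 and 4.80 CPM in CONTROL_IT and at 27.4, 112, 11.7 and 73.4 CPM in the NCTD_IT tumors, with a log2 fold change of 2.43 ± 0.83 (SE), unadjusted p = 0.00989 and adjusted p = 0.111. As for Ccl3, tumors 18 and 20 were high and CONTROL_IT tumor 10 overlapped the group. With 1 tumor left out at a time the NCTD_IT log2 fold change of Ccl4 was 1.86 to 3.68. In MIX_IT the means were 12.9 CPM for Ccl3 and 11.3 CPM for Ccl4, and in PTX_IT 17.2 and 13.2 CPM. With Xist as a covariate the NCTD_IT log2 fold changes were -0.40 for Ccl3 and -2.85 for Ccl4, with adjusted p-values of 0.970 and 0.848 in edgeR. This fit separates drug and Xist poorly and does not show that a direction turned.

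The monocyte chemoattractants Ccl2, Ccl7 and Ccl12, ligands of Ccr2, form a cluster on chromosome 11 with Ccl8, and these 4 genes did not pass an unadjusted p of 0.05 in any IT comparison. Ccl7 was at 61.0 and 174 CPM in CONTROL_IP and at 69.1 and 36.2 CPM in PTX_IP, and the groups overlapped, with a log2 fold change of -1.15 ± 0.47 (SE), unadjusted p = 0.0346 and adjusted p = 0.906. The value was -0.21 without CONTROL_IP tumor 2, -1.72 without CONTROL_IP tumor 1 and -0.77 without PTX_IP tumor 4. Its IT levels were 24.7, 209, 82.5 and 63.0 CPM in CONTROL_IT, 106, 135 and 24.9 CPM in PTX_IT, 195, 87.2, 98.3 and 134 CPM in NCTD_IT and 34.4, 141, 50.5 and 98.9 CPM in MIX_IT. Its NCTD_IP tumors were at 93.1 and 127 CPM and its MIX_IP tumors at 131 and 92.4 CPM. Each IT group held tumors on both sides of the CONTROL_IT median, except NCTD_IT, where all 4 lay above it.

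Ccl2 ranged from 5.80 CPM in MIX_IT tumor 23 to 109 CPM in CONTROL_IT tumor 10. In the IP series it was at 48.6 and 76.9 CPM in CONTROL_IP, 51.2 and 26.6 CPM in PTX_IP, 50.9 and 56.9 CPM in NCTD_IP and 87.5 and 35.5 CPM in MIX_IP. In the IT series it was at 11.6, 109, 41 and 46.0 CPM in CONTROL_IT, 38.9, 67.5 and 38.7 CPM in PTX_IT, 95.4, 25.5, 47.6 and 64.1 CPM in NCTD_IT and 22.9, 58.3, 5.80 and 38.2 CPM in MIX_IT. The group ranges overlapped throughout. Ccl12, its paralog, had group means between 11.8 CPM in MIX_IT and 26.4 CPM in CONTROL_IT.

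Ccl8, mainly a macrophage product, was at 88.1 and 214 CPM in CONTROL_IP, 187 and 24.2 CPM in PTX_IP, 106 and 261 CPM in NCTD_IP and 142 and 72.8 CPM in MIX_IP. In CONTROL_IT it was at 6.68, 193, 38.0 and 29.6 CPM, in PTX_IT at 195, 219.8 and 12.0 CPM, in NCTD_IT at 67.1, 39.5, 51.4 and 268 CPM and in MIX_IT at 28.0, 119, 27.3 and 71.0 CPM. Tumors 10 and 20 were the high tumors of their groups and tumors 9 and 16 the low ones.

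Ccl6 and Ccl9, neighbouring macrophage-derived ligands of Ccr1 on chromosome 11, showed another pattern. Ccl6 was at 37.8, 115, 54.6 and 70.6 CPM in CONTROL_IT and at 44.0, 47.2, 23.2 and 22.4 CPM in MIX_IT, where tumors 23 and 24 lay below every control, with a log2 fold change of -1.03 ± 0.33 (SE), unadjusted p = 0.00690 and adjusted p = 0.206. In NCTD_IT it was at 44.2, 74.9, 35.9 and 54.3 CPM and in PTX_IT at 46.4, 52.4 and 38.5 CPM, within the control range or just below it. The IP tumors had 91.2 and 77.3 CPM in CONTROL_IP, 92.3 and 40.8 CPM in PTX_IP, 93.4 and 104 CPM in NCTD_IP and 70.6 and 98.2 CPM in MIX_IP.

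Ccl9 was at 13.4, 32.8, 27.7 and 27.4 CPM in CONTROL_IT, 13.3, 15.4 and 16.4 CPM in PTX_IT, 46.3, 31.6, 14.5 and 39.9 CPM in NCTD_IT and 9.61, 21.2, 20.1 and 17.3 CPM in MIX_IT, with no drug comparison under an unadjusted p of 0.05. By the IP route it was at 30.6 and 43.0 CPM in CONTROL_IP, 39.1 and 20.3 CPM in PTX_IP, 24.6 and 27.1 CPM in NCTD_IP and 21.1 and 27.7 CPM in MIX_IP. The eotaxins Ccl11 and Ccl24 were detected in CONTROL_IP alone, with means of 1.2 and 1.89 CPM.

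Ccr1 and Ccr2, receptors of inflammatory CC ligands, lie on chromosome 9 and were detected in all 8 groups. Ccr2, the receptor of classical monocytes, was at 14.9 and 25.8 CPM in CONTROL_IP and at 8.85 and 7.28 CPM in MIX_IP, without overlap, with a log2 fold change of -1.32 ± 0.57 (SE), unadjusted p = 0.0441 and adjusted p = 0.999. Downward non-overlap was found for 6 of 28 members in MIX_IP, 21.4% against 18.9% of all genes, so it was common with 2 tumors a group. The other IP levels of Ccr2 were 24.3 and 6.32 CPM in PTX_IP and 8.94 and 12.6 CPM in NCTD_IP. In the IT series it was at 4.11, 36.7, 13.1 and 13.8 CPM in CONTROL_IT, 21.1, 37.0 and 3.85 CPM in PTX_IT, 36.1, 14.3, 14.1 and 26.9 CPM in NCTD_IT and 12.0, 16, 11.6 and 11.5 CPM in MIX_IT, with overlap.

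Ccr1 had group means from 8.91 CPM in NCTD_IP to 30.9 CPM in NCTD_IT, and its highest tumor was again NCTD_IT tumor 18, at 56.2 CPM.

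The interferon-induced ligands Cxcl9, Cxcl10 and Cxcl11 had no drug comparison with an unadjusted p below 0.05. Cxcl9, an interferon-gamma target, was at 213 and 286 CPM in CONTROL_IP, 318 and 60.1 CPM in PTX_IP, 173 and 264 CPM in NCTD_IP and 231 and 83.1 CPM in MIX_IP. In the IT series it was at 22.1, 235, 79.0 and 133 CPM in CONTROL_IT, 293, 387 and 75.1 CPM in PTX_IT, 226, 191, 95.9 and 367 CPM in NCTD_IT and 76.7, 244, 25.1 and 183 CPM in MIX_IT. The ranges of each drug group and its control overlapped, and group means ran from 117 CPM in CONTROL_IT to 252 CPM in PTX_IT.

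Cxcl10 was at 76.3 and 146 CPM in CONTROL_IP, 168 and 47.7 CPM in PTX_IP, 51.4 and 55.2 CPM in NCTD_IP and 107 and 70.0 CPM in MIX_IP. In CONTROL_IT it was at 32.6, 217, 55.3 and 69.7 CPM, in PTX_IT at 104, 118 and 71.3 CPM, in NCTD_IT at 156, 122, 106 and 131 CPM and in MIX_IT at 27.6, 109, 12.1 and 91.1 CPM. The NCTD_IT tumors were close together, from 106 to 156 CPM, and lay inside the CONTROL_IT range, whereas both NCTD_IP tumors lay below both CONTROL_IP tumors. Such downward non-overlap was found for 5 of 28 members in NCTD_IP, 17.9% against 18% of all genes. Cxcl11 had group means between 0.518 and 2.24 CPM. Cxcl10 and Cxcl11 both lie within Art3 on the opposite strand, a gene with 951 reads in all, and the strand setting of the counting was not given.

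Ccl5, an effector T cell and NK cell product, was at 44.8 and 103 CPM in CONTROL_IP, 194 and 14.4 CPM in PTX_IP, 39.1 and 130.5 CPM in NCTD_IP and 85.9 and 35.3 CPM in MIX_IP. In the IT series it was at 5.14, 69.3, 36.0 and 24.8 CPM in CONTROL_IT, 120.1, 150.4 and 11.3 CPM in PTX_IT, 55.7, 22.2, 19.3 and 254 CPM in NCTD_IT and 11.3, 87.5, 6.29 and 34.1 CPM in MIX_IT. Tumors 3, 6, 13, 15 and 20 were highest and tumors 9, 16, 21 and 23 lowest, and no drug comparison had an unadjusted p below 0.05.

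Levels were then related to the summed CPM of 10 T cell markers (such as Cd3e, Cd8a and Trac), which ran from 1.03 CPM in CONTROL_IT tumor 9 to 196 CPM in NCTD_IT tumor 20. In all, 93 relations were computed (31 members against T cell, macrophage and fibroblast marker sums, on log2(CPM + 1), n = 23), with permutation p-values from 100000 resamples, two-sided, and Benjamini-Hochberg adjustment. The permutations ignored groups and routes, so the p-values take in differences between groups as well. Close relations with the T cell sum were those of Ccl5 (Pearson's r = 0.954 and Spearman's rho = 0.956), Cxcl9 (Pearson's r = 0.947 and Spearman's rho = 0.955), Cxcr6 (Pearson's r = 0.944 and Spearman's rho = 0.942), Ccl8 (Pearson's r = 0.938 and Spearman's rho = 0.927) and Cxcl16 (Pearson's r = 0.909 and Spearman's rho = 0.939). Each of these 10 coefficients had a permutation p of 1e-05, the smallest that 100000 resamples can give, and adjusted values of 6.2e-05 (Pearson) and 7.15e-05 (Spearman). Without the 2 tumors farthest from the median T cell sum (CONTROL_IT 9 and MIX_IT 23) Pearson's r stayed between 0.908 and 0.935 for these 5 genes. Within the 8 IP tumors it was 0.912 to 0.978 and within the 15 IT tumors 0.904 to 0.956.

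The same 5 genes followed the macrophage and monocyte marker sum (11 genes, 193 to 1792 CPM), with Pearson's r from 0.838 for Cxcl9 to 0.954 for Ccl8, so T cell and macrophage markers moved with the same genes. The 23 points share the host strain, the tumor line and the CPM scale. In bulk tumors fewer cells of a type and less RNA per cell cannot be told apart. The T cell sum had group ranges of 1.03 to 60.6 CPM in CONTROL_IT, 5.64 to 129 CPM in PTX_IT, 14.5 to 196 CPM in NCTD_IT and 2.9 to 92.2 CPM in MIX_IT, and its part in the group differences above was not tested.

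Cxcr3, the receptor of Cxcl9, Cxcl10 and Cxcl11 on activated T cells, did not rise with the T cell or macrophage sums. Against the T cell sum it gave Pearson's r = -0.350 and Spearman's rho = -0.326 (permutation p = 0.101 and 0.129, adjusted 0.181 and 0.230, n = 23). Against the macrophage and monocyte sum it gave Pearson's r = -0.507 and Spearman's rho = -0.475 (permutation p = 0.0138 and 0.0226, adjusted 0.0329 and 0.05). Without PTX_IT tumor 16 and CONTROL_IT tumor 9 this r was -0.339, and it was -0.627 within the IP and -0.399 within the IT series. Its highest level, 12.1 CPM or 47 reads, was in CONTROL_IT tumor 9, where Cxcl9 was lowest of all tumors, at 22.1 CPM. The group means of Cxcr3 ran from 3.13 CPM in MIX_IP to 8.63 CPM in CONTROL_IT. For Ccl25 Pearson's r with the T cell sum was 0.0330 and for Ccl27a 0.273. No gene in the table overlaps Cxcr3 (chrX:100775141-100777875).

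**Figure D4:**
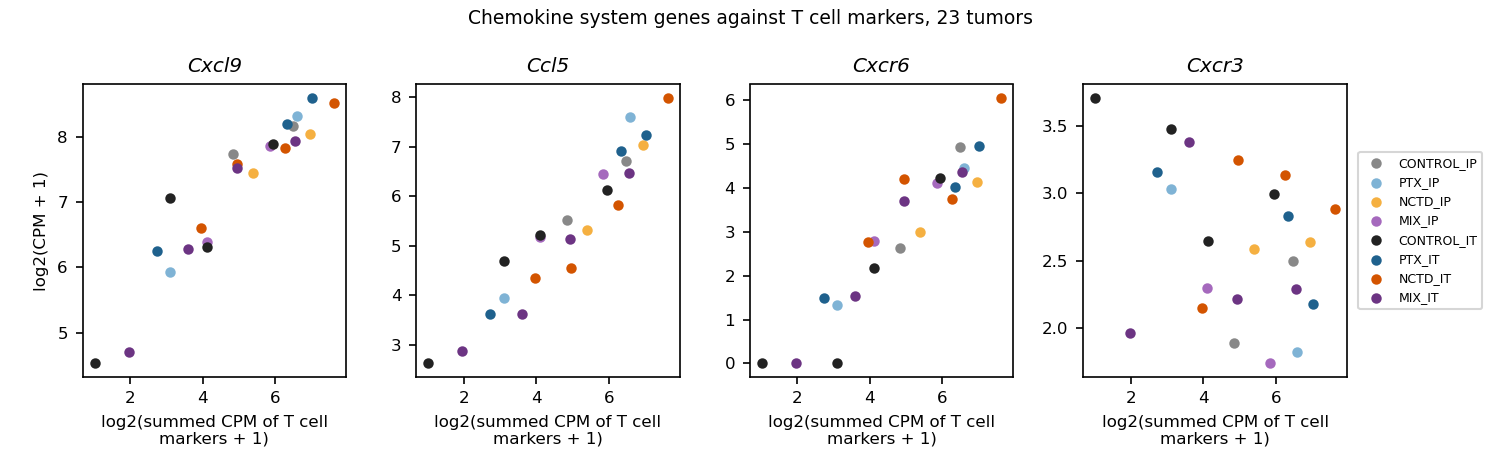
Levels of Cxcl9, Ccl5, Cxcr6 and Cxcr3 as log2(CPM + 1) against the summed level of 10 T cell markers as log2(CPM + 1) in 23 tumors, coloured by group. Cxcl9, Ccl5 and Cxcr6 rise along the T cell axis across groups, whereas Cxcr3 does not.

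Cxcl12, the stromal ligand of Cxcr4, was the member with the smallest unadjusted p in MIX_IT. It was at 2.83, 12.2, 9.05 and 7.06 CPM in CONTROL_IT and at 23.1, 27.7, 119 and 12.0 CPM in MIX_IT, where tumors 21, 22 and 23 lay above all controls and tumor 24 just below CONTROL_IT tumor 10, with a log2 fold change of 2.53 ± 0.67 (SE), unadjusted p = 0.00157 and adjusted p = 0.160. Without tumor 23 the MIX_IT mean was 20.9 ± 8.09 CPM (SD, n = 3) and the log2 fold change 1.40. In NCTD_IT the 4 tumors, at 16.5, 43.3, 17.6 and 26.9 CPM, all lay above the controls, with a log2 fold change of 1.72 ± 0.66 (SE), unadjusted p = 0.0192 and adjusted p = 0.149. In PTX_IT it was at 19.7, 30.8 and 6.15 CPM, overlapping the controls. With Xist as a covariate, a fit that separates drug and Xist poorly, the NCTD_IT value was -1.22 with an adjusted p of 0.895 in edgeR. The MIX_IT value was then 2.84 with an adjusted p of 0.0499 in edgeR, which called 83 of all tested genes.

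By the IP route Cxcl12 was at 16.3 and 18.6 CPM in CONTROL_IP, 27.8 and 12.4 CPM in PTX_IP, 10.3 and 12.9 CPM in NCTD_IP and 14.1 and 11.5 CPM in MIX_IP. Across the 23 tumors it followed the fibroblast marker sum (7 genes such as Col1a1 and Dcn; Pearson's r = 0.83 and Spearman's rho = 0.703, permutation p = 1e-05 and 2.9e-04, adjusted 6.20e-05 and 0.00111). Without MIX_IT tumor 23 and CONTROL_IT tumor 9 r was 0.605, within the IP series 0.562 and within the IT series 0.858. Cxcl5 also followed it (Pearson's r = 0.678 and Spearman's rho = 0.723; permutation p = 2.60e-04 and 1.40e-04, adjusted 9.64e-04 and 6.20e-04), with r = 0.721 without those tumors, 0.611 within IP and 0.701 within IT. The fibroblast sum was 108 to 368 CPM in CONTROL_IT, 390 to 1676 CPM in NCTD_IT and 493 to 8568 CPM in MIX_IT, and its part in the Cxcl12 and Cxcl5 estimates was not tested. The endothelial marker sum (6 genes) also lay apart from CONTROL_IT (39.8 to 61.8 CPM) in NCTD_IT (76.6 to 145 CPM) and MIX_IT (66.2 to 217 CPM), with 1 of its 5 tested genes past an adjusted p of 0.05 in NCTD_IT in edgeR, and its part was not tested either.

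Cxcr4 had an NCTD_IT log2 fold change of 1.68 ± 0.59 (SE; edgeR unadjusted p = 0.0119, adjusted p = 0.121). Its group means were 5.44 ± 3.37 CPM (SD, n = 4) in NCTD_IT, 1.65 ± 0.996 CPM (SD, n = 4) in CONTROL_IT, 2.62 ± 0.408 CPM (SD, n = 3) in PTX_IT and 3.12 ± 1.29 CPM (SD, n = 4) in MIX_IT, and tumor 18 was highest at 10.2 CPM. Cxcl16, a transmembrane ligand whose receptor is Cxcr6, was at 9.12 ± 5.49 CPM (SD) in CONTROL_IT and 30.0 ± 17.2 CPM (SD, n = 4 each) among the NCTD_IT tumors, with a log2 fold change of 1.70 ± 0.74 (SE), unadjusted p = 0.0340 and adjusted p = 0.193. With Xist as a covariate, a fit that separates drug and Xist poorly, this value was -2.94, with an adjusted p of 0.836 in edgeR. Cxcr6, carried by resident and effector T cells, had no read in CONTROL_IT tumors 9 and 12 and MIX_IT tumor 23 and was at 65.7 CPM in NCTD_IT tumor 20. Cxcr6 lies within Fyco1 on the opposite strand, a gene with 3074 reads in all. Cxcl14, a constitutive epithelial chemokine, had group means between 1.08 and 4.79 CPM.

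Of the homeostatic ligands, Ccl25 and Ccl27a were detected in all 8 groups, with group means of 4.99 to 9.94 CPM and 3.09 to 8.23 CPM. Both overlap an expressed gene on the opposite strand, Elavl1 (7662 reads) for Ccl25 and Il11ra1 (1862 reads) for Ccl27a, so their counts are uncertain. The Ccr4 ligands Ccl17 and Ccl22 had group means of at most 1.53 and 1.91 CPM, both in PTX_IP, and Ccr4 itself had 7 reads in all tumors. Ccl20 had 2 reads, and its receptor Ccr6 none. Cxcl13 had 11 reads and its receptor Cxcr5 had 7. Ccr9, the receptor of Ccl25, reached 1 CPM in CONTROL_IP (1.70 CPM) and NCTD_IT (1.07 CPM), and it overlaps Lztfl1 (1097 reads) on the opposite strand.

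Ccr7, which guides dendritic cells and naive T cells to lymph nodes, was at 4.84 and 2.7 CPM in CONTROL_IP and at 0.521 and 1.12 CPM in MIX_IP, without overlap, with a log2 fold change of -2.16 ± 0.85 (SE), unadjusted p = 0.0313 and adjusted p = 0.999. The MIX_IP levels were 2 and 4 reads, and the lower one lay under the floor of that tumor, 0.781 CPM. Downward non-overlap in MIX_IP was found for 18.9% of all genes. In PTX_IP it was at 3.73 and 1.74 CPM and in NCTD_IP at 1.40 and 3.81 CPM. In CONTROL_IT it was at 0, 1.75, 0.503 and 0.282 CPM, in PTX_IT at 1.67, 2.25 and 1.28 CPM, in NCTD_IT at 2.60, 2.05, 1.03 and 4.26 CPM and in MIX_IT at 0.214, 1.87, 1.93 and 2.49 CPM. Its ligand Ccl21a had reads in 5 of 23 tumors, 23 in MIX_IP tumor 7, 17 in PTX_IP tumor 3, 16 in PTX_IT tumor 13, 6 in NCTD_IP tumor 6 and 1 in CONTROL_IT tumor 12. Its unadjusted p of 0.0450 in MIX_IP (edgeR adjusted p = 0.999) rested on the 1 tumor with reads, since the other 3 tumors compared were at 0. Ccl21a is nearly identical to Ccl21b and Ccl21d, so reads could have been divided or dropped. The other Ccr7 ligand, Ccl19, had 2 reads in all.

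Genes acting with the family were counted from fixed lists. Of 11 other chemokine system genes (atypical receptors Ackr1 to Ackr4, Ccrl2, Cx3cl1 and Cx3cr1, Xcl1 and Xcr1, Pf4 and Ppbp), 7 were tested in each series and 0 had an unadjusted p below 0.05 in any of the 6 drug comparisons. Of 24 genes of chemokine receptor signalling, 23 were tested in the IT series and 22 in the IP series, and edgeR called 0 at an adjusted p of 0.05 in any drug comparison. At an unadjusted p below 0.05, 7 of 23 were higher (30.4% against 11.6% of all tested genes) and 3 lower (13% against 10.0%) in NCTD_IT. In PTX_IT 5 were higher (21.7% against 4.18%), in MIX_IT 1 was lower (4.35% against 5.11%) and in PTX_IP 1 of 22 was higher (4.55% against 3.00%). The higher genes in NCTD_IT included Rgs2, a regulator of G protein signalling (log2 fold change 1.48 ± 0.36), and Vav1 and Prex1, leukocyte activators of Rac GTPases (2.32 ± 0.84 and 2.09 ± 0.74, SE). Their edgeR adjusted p-values were 0.0542, 0.131 and 0.121. These 3 were chosen from the 7 after their values were seen.

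Whether the 4 IT groups differed at all was tested gene by gene in 1 model of the 4 groups, with the 27 members among the genes tested. No member passed an adjusted p of 0.05 in edgeR (0.0240% of all genes did), and DESeq2 called 2 (Ccl3 and Cxcl12) among 358 of all genes. At an unadjusted p below 0.05 there were 7 members (Cxcl2, Ccl3, Cxcl3, Cxcl12, Ccl4, Ccl9 and Ccl6), 25.9% against 12.9% of all genes. In the IP series there were 0 members at either threshold, against 0% at an adjusted and 3.27% at an unadjusted p, and DESeq2 also called 0. With 1 tumor left out at a time the unadjusted IT count was 4 (14.8% against 10.4% of all genes, without NCTD_IT tumor 18) to 9 (33.3% against 12.8%, without CONTROL_IT tumor 10), and 3 (11.1% against 11.5%) without tumors 18 and 23. The IP count was 0 to 8, with 8 of 29 (27.6% against 8.18%) without PTX_IP tumor 3, 4 of 29 (13.8% against 7.26%) without PTX_IP tumor 4 and 1 without either CONTROL_IP tumor.

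The combination was compared with the sum of the effects of the single drugs on the log2 scale. The test sets MIX_IT and CONTROL_IT against PTX_IT and NCTD_IT, the split also seen in Xist and Ddx3y. The departure and the difference in sex-linked transcripts therefore cannot be told apart, and no fit with Xist was made for it. In the IT series 0 members passed an adjusted p of 0.05 (0.0160% of all genes were higher and 0.0240% lower), in edgeR and in DESeq2. At an unadjusted p below 0.05, 5 of 27 members were lower in MIX_IT than that sum (18.5% against 6.39%), namely Cxcl2 (-3.50 ± 1.36), Cxcl3 (-4.25 ± 1.87), Ccl3 (-3.14 ± 1.03), Ccl4 (-2.63 ± 1.2) and Cxcl16 (-2.65 ± 1.05; departures on the log2 scale with SE), and 0 were higher (4.92%). Without NCTD_IT tumor 18 the departure was -0.76 for Cxcl2 and -1.28 for Cxcl3, and without tumors 18 and 23 only Cxcl16 of the 27 had an unadjusted p below 0.05 (3.70% against 13.3% of all genes). With 1 tumor left out at a time the count of members past an unadjusted p of 0.05 in either direction was 2 to 12. The counts of 3 and 8 that follow lack the share over all genes, so they do not describe a change particular to the family. It was 2 without PTX_IT tumor 15 (6.90% against 5.00% of all genes), 3 without CONTROL_IT tumor 9 or 12, PTX_IT tumor 13, NCTD_IT tumor 18 or 20 or MIX_IT tumor 21 or 24, 8 without PTX_IT tumor 16 or MIX_IT tumor 22 and 12 without CONTROL_IT tumor 10 (44.4% against 13.6%).

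Between routes, averaged over the 4 treatments and tested over all 23 tumors (31 members of 13395 genes), 0 members passed an adjusted p of 0.05 in edgeR (0.545% of all genes were higher in IT and 0.194% lower). DESeq2 called 2 (Cxcl2 and Ccl6) among 391 of all genes. At an unadjusted p below 0.05, 4 were higher in IT (12.9% against 8.29%), namely Cxcl2 (2.03 ± 0.59), Cxcl3 (2.78 ± 0.95), Cxcr2 (2.82 ± 1.21) and Cxcr3 (0.63 ± 0.29), and 2 were lower (6.45% against 6.08%), namely Ccl6 (-0.76 ± 0.20; edgeR adjusted p = 0.0733) and Ccl9 (-0.42 ± 0.20; log2 differences with SE). Without tumor 18 the Cxcl2 difference was 1.34. With 1 tumor left out at a time the difference was 2.03 to 3.91 for Cxcl3 and, where tested, 2.08 to 3.53 for Cxcr2. The unadjusted count was lowest without NCTD_IT tumor 18, at 3 of 30 (10.0% against 13.7% of all genes).

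Drug effects were also compared between routes. For PTX and NCTD the IT effect includes the difference in sex-linked transcripts, which cannot be told apart from the drug. No member passed an adjusted p of 0.05 for PTX, NCTD or MIX, in each of which 0% of all genes passed, in edgeR, and DESeq2 called 0 for each. At an unadjusted p below 0.05 the NCTD effect was higher by IT for 2 members of 31 (6.45% against 5.50%), Cxcl2 (4.76 ± 1.60) and Cxcl12 (2.31 ± 1.03). Without tumor 18 the Cxcl2 difference was 2.03. The MIX effect was higher by IT for 2 (6.45% against 4.75%), Cxcl12 (2.97 ± 1.03) and Ccr7 (3.45 ± 1.38), as log2 differences with SE. With 1 tumor left out at a time the difference was 1.83 to 3.26 for Cxcl12 and 2.95 to 4.66 for Ccr7. Ccr7 had only 2 and 4 reads in MIX_IP and 0, 8, 2 and 1 in CONTROL_IT. No member had an unadjusted p below 0.05 for PTX, against 2.59% of all genes higher and 2.64% lower. When 1 tumor was left out the PTX count was 0 to 2 (2 without PTX_IP tumor 3, 1 without CONTROL_IT tumor 10). The NCTD count was 0 to 10, with 10 of 31 (32.3% against 12.4% of all genes) without CONTROL_IT tumor 10, 4 without NCTD_IT tumor 19, 1 without CONTROL_IT tumor 9 or 12, NCTD_IP tumor 5 or NCTD_IT tumor 18 and 0 without CONTROL_IP tumor 1. For MIX the count also moved with the tumor left out. Counts in this paragraph printed without the share over all genes do not describe a change particular to the family.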

How the data were processed

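Counts of RNA reads per gene in 23 B16-F1 tumors were used as deposited. The authors made 3′ mRNA libraries (Collibri), and per the labels the processing used FastQC, Trimmomatic, STAR 2.7.11b and GRCm39. How strand, multi-mapping reads and molecular identifiers were treated is not given in the sources used here, so floors (3 counts) cover counting error only. Depth was 2861578 to 6702374 counts per tumor. CPM values were scaled by TMM over all 23 tumors. Within a route, genes passing filterByExpr (minimum count 10, total 15) were tested with edgeR 4.0.16 (glmQLFit and glmQLFTest, TMM, 4 groups in 1 model, Benjamini-Hochberg). Route and interaction tests used all 23 tumors. DESeq2 1.42.0 was an alternative, and others are given in the closing section. SE was the absolute log2 fold change divided by the square root of F. On simulated counts with a log2 change of 2 the test recovered 81.0% of changed genes among 12225 (IP) and 89.9% among 12119 (IT). These counts had a common dispersion for all genes and no outlying tumors. The shares therefore do not give how often a chemokine change of that size would be called in these tumors. Of 25 pairs of tumors of 1 group none agreed within sampling noise (chi-square per degree of freedom 8.80 to 71.8). Nothing in the labels ties a tumor to more than its own number, so p-values measure the spread between these tumors. The members and lists were chosen with earlier results of these data known. Values for every tumor are given for the 10 detected members with the highest mean, every member past an adjusted p of 0.05, and in each drug comparison up to 4 members with the smallest unadjusted p below 0.05. Known ligand and receptor pairs are given by group means, by the range of group means or by values of single tumors. Counts cover all members, and 1 member is not reported here by name. Promoters were read from GRCm39 with GENCODE vM39. All 54 members of the file overlapped the gene of the same identifier there, 20 with identical ends.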

Additional observations from a re-analysis of the deposited data

Results flagged for a closer look

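In 8 of 51 groups of 4 tumors examined for 17 chemokine genes, 1 tumor stood apart from the other 3 by Dixon's criterion. Its rate of about 1 group in 20 holds for independent, normally distributed values. CPM values are skewed, and these genes move together and were chosen from these data. No excess over chance can therefore be read from the count. NCTD_IT tumor 18 stood apart for Cxcl2 (1266 CPM) and Cxcl3 (79.0 CPM), and it was also the tumor with 1080.0 CPM of neutrophil markers. NCTD_IT tumor 20, which had the highest T cell marker sum (196 CPM), stood apart for Ccl5 (254 CPM) and Ccl8 (268 CPM). CONTROL_IT tumor 10 stood apart for Ccl8 (193 CPM) and had the highest T cell marker sum of its group (60.6 CPM). MIX_IT tumor 23 stood apart for Cxcl12 (119 CPM) and had 8568 CPM of fibroblast markers. MIX_IT tumor 22 stood apart for Ccr2 (16 CPM, the other 3 between 11.5 and 12.0 CPM), and CONTROL_IT tumor 12 for Ccl21a (0.282 CPM, a single read). With the other 3 at 0, any read meets the criterion. The part of these marker levels in the chemokine values was not tested.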

How the results depend on the processing

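No paired analysis was possible because the labels give each tumor a number of its own. The NCTD_IT log2 fold change of Cxcl2 was positive under every alternative that gave a value (2.12 to 5.26), but its adjusted p was above 0.05 in 8 of them. Members past an adjusted p of 0.05 in NCTD_IT, 1 in edgeR as reported, were 0 with Xist as a covariate or without tumors 18 and 23, 2 with DESeq2 on the same tumors (Ccl3 and Cxcl5) or edgeR on the 2 groups alone (Cxcl12 and Cxcl2), and 3 with DESeq2 on the 2 groups (Ccl3, Cxcl12 and Cxcl16) or edgeR on all 23 tumors (Ccl3, Cxcl2 and Cxcr2). Leaving out 1 tumor gave 0 to 3, with 0 without CONTROL_IT 9, 11 or 12, PTX_IT 13 or NCTD_IT 17 or 18, settings in which 0 or 1 of all genes was called, and 3 without PTX_IT 16 or MIX_IT 23, with 581 and 843. Over all genes NCTD_IT calls were 171 in edgeR, 991 with DESeq2, 946 and 1501 on the 2 groups with edgeR and DESeq2, and 777 on all 23 tumors. They were 0 with Xist as a covariate and 179 without tumors 18 and 23. In MIX_IT the count was 1 with DESeq2 (Cxcl12, among 218 of all genes) or with Xist (Cxcl12, among 83). It was 2 with DESeq2 on the 2 groups (Cxcl12 and Cxcl2, among 338). For any difference among IT groups DESeq2 gave 2 (among 358 of all genes), and for IT against IP 2 (among 391). For IT against IP leaving out 1 tumor in edgeR gave 0 to 1 (Ccl6, without CONTROL_IT 10 or MIX_IT 22, among 56 and 168 of all genes). With no filter on low counts the members called (all genes in brackets) were 1 in PTX_IP (71), 1 in NCTD_IP (71), 2 for any IP difference (192), 6 in PTX_IT (222), 12 in NCTD_IT (1190), 4 in MIX_IT (364), 17 for any IT difference (927), 11 for the departure (443), 5 for IT against IP (453), and 2, 6 and 2 for the PTX, NCTD and MIX effects between routes (110, 283 and 139). With Xist as a covariate the NCTD_IT log2 fold change was -2.94 for Cxcl16, -0.40 for Ccl3, -1.22 for Cxcl12 and -2.85 for Ccl4, which does not show that a direction turned. Their adjusted p-values in edgeR were 0.836 to 0.970, and Xist did not overlap between NCTD_IT and CONTROL_IT. The cause of these shifts was not tested. Detected genes numbered 35, or 37 at 0.5 CPM, 30 at 2 CPM and 34 at 3 counts or more in every tumor of a group, and 34 to 36 without 1 tumor. Without MIX_IP tumor 7 Ccl21a gave no value. Genes under about 1 CPM had too few reads for a difference to be detectable.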
